A study of Homo sapiens with 72 samples.

Results

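Noncoding miRNA host genes are transcripts that carry miRNA hairpins in their exons or introns and encode no known protein. The 9 members described here were chosen by name, whatever their level, as MIR17HG, MIR22HG, MIR31HG, MIR100HG, MIR210HG, MIR205HG, MIRLET7BHG, MIR99AHG and H19. They are 9 of the 26485 genes counted in the poly(A) mRNA libraries, and 6 of them had enough reads to be tested among 15556 genes. Their hairpins give 40 of the 2588 mature miRNAs counted in the small RNA libraries, of which 33 were among the 830 tested. Each host transcript was set beside the miRNAs it carries.

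The series holds 72 libraries, made from 9 groups with 4 mRNA and 4 small RNA libraries each. DU145 is a prostate cancer line without endogenous LIN28A, and IGROV1 is an ovarian cancer line that expresses it. The wild-type groups are DU145 WT, LIN28A-OE DU145 WT and IGROV1 WT, and each of these backgrounds also has 2 groups of TUT4/7 double mutants, named cKO1 and cKO2. In the mutants both terminal uridylyl transferases were disrupted by CRISPR, TUT4 in exon 12 and TUT7 in exon 14. The LIN28A-OE groups, wild type and mutant, carry a lentiviral LIN28A cDNA that is driven by a CMV promoter, lacks introns and the 3′ untranslated region, and was selected with puromycin. Each mutant group was taken as 1 clone, as the methods describe it, so a mutation and a clone cannot be told apart within a group. The 4 libraries of a group are successive passages. DU145 WT is labelled with far later passages than every other group, which run from 8 to 12 in its mutants, 1 to 4 in the LIN28A-OE groups, 6 to 9 in IGROV1 WT and 2 to 6 in its mutants, so passage number and group cannot be told apart where DU145 WT is compared. In both cKO2 groups of DU145 and both IGROV1 mutant groups the labelled clone name also changes in its last number from library to library. By their clone names, DU145 and LIN28A-OE DU145 share the same clones, so their 2 comparisons of clones are not independent. The p-values therefore measure the spread between these libraries only.

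Libraries held 7195437 to 25054688 reads on genes and 5703566 to 13957450 reads on mature miRNAs. TUT4 mRNA averaged 56.7 CPM (counts scaled to 1e6 reads on genes) in DU145 WT against 12 in cKO1 and 41.7 in cKO2, and 78.0 in IGROV1 WT against 26.6 and 27.1. LIN28A mRNA averaged 69.6 CPM in LIN28A-OE DU145 WT but 379 and 262 CPM in its 2 mutant groups, so the transgene level moved with genotype and its part in the LIN28A-OE comparisons was not tested. PAX8, a Müllerian marker, was high in IGROV1, whereas the prostate markers KLK3 and HOXB13 were near 0 in DU145. The summed epithelial markers fell from 445 to 559 CPM in IGROV1 WT to 198 to 401 in cKO1 and 27.7 to 46.5 in cKO2, and the part of this shift in the IGROV1 results was not tested. In bulk RNA, fewer cells of a kind and less RNA per cell cannot be told apart. In the miRNA table, the columns named LIN28A-OE DU145 WT replicate 2 and LIN28A-OE DU145 cKO1 replicate 2 each lay closest to the other's own file of modified reads. They were kept as named, and the main LIN28A-OE miRNA results are given with and without both. In the mRNA assay, LIN28A-OE DU145 WT replicate 1, IGROV1 cKO1 replicate 4 and IGROV1 cKO2 replicate 4 were the least like their groups.

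A host gene is transcribed by RNA polymerase II, and Drosha cuts the hairpins out of the nascent or spliced transcript before Dicer releases the mature strands. The spliced host RNA measured in a poly(A) library and the mature miRNA are thus separate products of 1 locus, with separate decay. TUT4 and TUT7 add uridines to the 3′ ends of miRNAs and their precursors, and LIN28A recruits them to the let-7 precursors.

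The mature sequences that the results turn on are printed 5′ to 3′ from RefSeq (GRCh38.p14), with the seed (bases 2 to 8) in capitals, because shared seeds join hosts on different chromosomes. RefSeq held 39 of the 40 sequences.
hsa-miR-210-3p: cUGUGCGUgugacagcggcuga
hsa-miR-31-5p: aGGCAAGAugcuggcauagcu
hsa-miR-100-5p: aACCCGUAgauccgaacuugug
hsa-miR-99a-5p: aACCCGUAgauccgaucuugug
hsa-miR-125b-1-3p: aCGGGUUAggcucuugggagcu
hsa-miR-125b-2-3p: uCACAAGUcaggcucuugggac
hsa-let-7a-5p: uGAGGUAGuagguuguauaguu
hsa-let-7b-5p: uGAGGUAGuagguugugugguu
hsa-let-7c-5p: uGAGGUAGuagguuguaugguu
hsa-let-7a-2-3p: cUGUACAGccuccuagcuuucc
hsa-let-7b-3p: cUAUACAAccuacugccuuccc
hsa-miR-92a-3p: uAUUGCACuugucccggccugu
hsa-miR-22-3p: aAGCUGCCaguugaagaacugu
The miR-100-5p and miR-99a-5p seed ACCCGUA comes from MIR100HG and MIR99AHG, and the let-7 seed GAGGUAG from MIR100HG, MIRLET7BHG and MIR99AHG. The 3p strands of miR-125b-1 and miR-125b-2 have different seeds, so they show which of the 2 loci was active where the identical 5p strand cannot.

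MIR210HG (chr11:565657-568457, minus strand, GRCh38) holds mir-210 in an intron of 9 of its 9 annotated transcripts, and miR-210 is best known as a miRNA induced by hypoxia. In IGROV1 the host transcript was lower in both mutant clones, and its miRNA was lower with it. MIR210HG read 19, 11, 16.6 and 16.6 CPM in the 4 IGROV1 WT libraries, 4.57, 3.97, 4.13 and 6.34 CPM in cKO1, and 3.78, 3.55, 2.63 and 6.32 CPM in cKO2. No mutant library reached the lowest wild-type library. The mean of the mutant clones lay 1.83 below wild type on the log2 scale (log2 change -1.83, SE 0.21, adjusted p = 6.36e-09, edgeR quasi-likelihood test with Benjamini-Hochberg adjustment over all genes), and each clone alone passed the test, with -1.69 and -1.97. Leaving out cKO1 replicate 4 or cKO2 replicate 4 gave -1.90 and -1.99. MIR210HG was the 1 host called in this comparison, in which 33.2% of all genes were called.

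The miRNA followed. The abundance of miR-210-3p, in RPM (reads scaled to 1e6 reads on mature miRNAs), was 410, 418, 341 and 318 in IGROV1 WT, 146, 132, 148 and 129 in cKO1, and 135, 121, 110 and 121 in cKO2. The groups did not overlap, and the log2 change was -1.49 (SE 0.17, adjusted p = 8.41e-09, edgeR). The minor strand miR-210-5p fell by 1.43 on the log2 scale.

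In DU145 the host and the miRNA parted in clone 1. MIR210HG read 10.6, 4.46, 7.72 and 5.42 CPM in DU145 WT and 7.02, 6.54, 8.71 and 6.11 CPM in cKO1, whereas cKO2 held 1.92, 2, 1.83 and 1.06 CPM. Clone 1 lay within the wild-type range and clone 2 lay wholly below it. The mean change of -1.09 (SE 0.24, adjusted p = 0.00076, edgeR) came from clone 2 alone, with -2.18, against -0.00 for clone 1. Without DU145 WT replicate 1 the mean change was -0.81 and no longer called (adjusted p = 0.0155, edgeR). In contrast, miR-210-3p was below wild type in both clones, from 213, 188, 219 and 245 RPM in DU145 WT to 109, 106, 107 and 106 RPM in cKO1 and 44.1, 68.2, 66.2 and 46.0 RPM in cKO2. Its change was -0.80 for clone 1 alone and -2.30 for clone 2 alone, both called, and -1.55 for their mean (SE 0.18, adjusted p = 2.19e-08, edgeR). Clone 2 lay below clone 1 for the host (-2.18, adjusted p = 6.78e-07) and for the miRNA (-1.49, adjusted p = 2.03e-06, both edgeR).

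**Figure D1:**
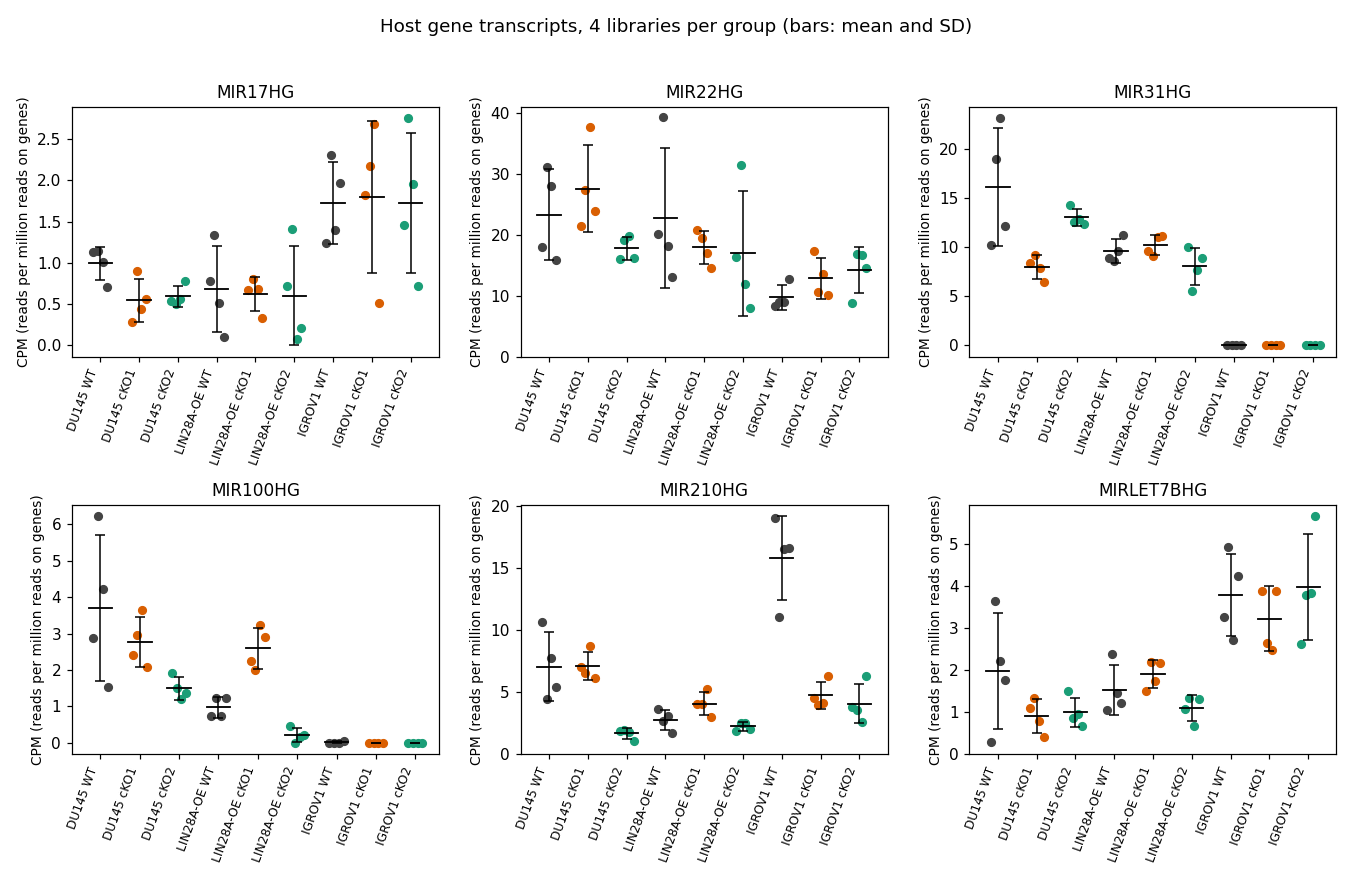
Host transcript levels in CPM (linear axis) for the 6 tested hosts, with 1 point per library, 4 libraries per group, and bars for the mean and SD. MIR210HG separates IGROV1 WT from its mutants and DU145 cKO2 from DU145 WT and cKO1, and MIR31HG and MIR100HG are near 0 throughout IGROV1.

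With LIN28A overexpressed, the host was not called in the mean of the clones, and the call on miR-210-3p depended on the table used. MIR210HG read 3.65, 2.73, 3.08 and 1.72 CPM in LIN28A-OE DU145 WT, 4.05, 4.04, 5.27 and 2.98 CPM in cKO1 and 1.86, 2.57, 2.56 and 2.02 CPM in cKO2 (log2 change -0.00, adjusted p = 1, edgeR). The log2 change of miR-210-3p was -0.14 (adjusted p = 0.661), and -0.36 (adjusted p = 0.0213, both edgeR) without both doubtful columns. Computed from the per-sample modification files it was -0.80 and called (adjusted p = 1.03e-05, edgeR). Its 3 ordinary cKO1 libraries held 116, 90.3 and 87.9 RPM and the doubtful column 199 RPM. The LIN28A-OE effect on miR-210-3p differed from the DU145 effect by 1.41 (adjusted p = 0.000361, edgeR), by 1.21 (adjusted p = 1.5e-06) without both columns, and by 0.71, not called (adjusted p = 0.0154), from the per-sample files. For the host the same difference was 1.09 and not called (adjusted p = 0.128). LIN28A-OE DU145 WT also lay below DU145 WT for the host (-1.30, SE 0.28, adjusted p = 0.00109) and for miR-210-3p (-0.95, SE 0.21, adjusted p = 0.00155, edgeR; -1.04 without both columns), the latter -0.50 and not called (adjusted p = 0.0276) from the per-sample files. The host call was lost without DU145 WT replicate 1 (-1.01, adjusted p = 0.0157) and when only the libraries compared were fitted (-1.35, adjusted p = 0.0406). Between the LIN28A-OE clones, MIR210HG was lower in cKO2 (-0.94, adjusted p = 0.00667), a call that ended without cKO1 replicate 1, 2 or 3 or cKO2 replicate 1 or 4, with values from -0.95 to -0.84 and adjusted p from 0.0122 to 0.0271. The matching miR-210-3p difference was -0.83 (adjusted p = 0.00354), -0.31 (adjusted p = 0.0728, edgeR) without both columns, -0.90 (adjusted p = 2.45e-05) from the per-sample files and -0.32 (adjusted p = 0.206) when scaled to library totals.

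The promoter of MIR210HG is shown because hypoxia-inducible factor (HIF) is a known activator of mir-210 and the HIF target genes were examined beside it. The 300 bases from 250 before to 50 after the annotated start (chr11:568408-568707, minus strand, GRCh38.p14, RefSeq) are printed with the HIF core letters ACGTG and GCGTG, searched on both strands, in capitals.
MIR210HG promoter: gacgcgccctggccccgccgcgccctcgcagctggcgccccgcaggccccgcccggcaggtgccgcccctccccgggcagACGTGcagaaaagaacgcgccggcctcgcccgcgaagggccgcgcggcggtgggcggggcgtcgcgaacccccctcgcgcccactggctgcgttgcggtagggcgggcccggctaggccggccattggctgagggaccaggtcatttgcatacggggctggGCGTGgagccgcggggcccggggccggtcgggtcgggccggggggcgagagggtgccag
Each motif was present once. ACGTG occurred in 21.4% and GCGTG in 36.5% of 35116 promoters of the same length, and 48.4% held at least 1 of them. The letters are thus common and cannot by themselves tell whether HIF binds there, which was not tested.

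Of 12 listed HIF targets, 11 were tested. In IGROV1 mutants 4 were lower and 1 was higher, where 33.2% of all genes were called in either direction. Among them SLC2A1, a glucose transporter, changed by -1.43, PDK1, which restrains pyruvate entry into mitochondria, by -1.29, ADM, a vasoactive peptide, by -1.07, and EGLN3, a HIF prolyl hydroxylase, by 2.46. HIF1A mRNA itself fell by 1.59 on the log2 scale (adjusted p = 1.9e-08, edgeR). In DU145 mutants 4 targets were lower and 2 higher, where 18.1% of all genes were called, with ADM up by 4.55 and PDK1, BNIP3 (a mitophagy receptor) and P4HA1 (a collagen prolyl hydroxylase) at -1.25, -1.20 and -1.06. HIF1A there had a change of -0.38 that was not called (adjusted p = 0.15). The median log2 change of the list was -0.35 in IGROV1, -0.48 in DU145 and -0.27 in LIN28A-OE DU145, against 0.00 for all genes in each. In LIN28A-OE DU145 1 target was lower and 2 higher, where 17.9% of all genes were called. In these mutant comparisons the list moved in both directions, and ADM opposed MIR210HG in DU145. Between the DU145 clones 0 targets were higher and 5 lower in clone 2 (median -0.74, 31.1% of all genes called). Between the LIN28A-OE clones 1 was higher and 4 lower (median -0.49, 37.6%). LIN28A-OE DU145 WT against DU145 WT had 1 higher and 4 lower (median -0.60, 9.21%), and DU145 WT against IGROV1 WT 3 and 3 (median 0.005, 60%). The part of HIF in the MIR210HG changes was not tested.

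MIR31HG (chr9:21380073-21559891, minus strand) carries mir-31 in an intron and lies near CDKN2A, CDKN2B and MTAP on the short arm of chromosome 9. It was a DU145 transcript. IGROV1 WT held 1 read over 4 libraries and the IGROV1 mutants 0, whereas DU145 WT held 637 reads, a ratio of 1159 after scaling to the group totals (95% interval 207 to 45845, counting error only). The miRNA showed the same order with a smaller gap. miR-31-5p was present in IGROV1 WT at 60.4, 57.8, 69.3 and 72.8 RPM. In DU145 WT it read 7903, 8184, 7697 and 7731 RPM.

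The largest fall of a hosted miRNA in the IGROV1 mutants was that of miR-31-5p, where its host was too low to measure. It dropped to 3.94, 5.74, 7.19 and 7.36 RPM in cKO1 and 4.39, 12.1, 3.17 and 5.48 RPM in cKO2 (log2 change -3.38, SE 0.19, adjusted p = 7.74e-17, edgeR). No mutant library came near the wild-type range. The passenger strand miR-31-3p fell from 27 reads in IGROV1 WT to 2 reads in cKO1 and 3 in cKO2 (-2.91, adjusted p = 4.27e-06, edgeR). A change in MIR31HG was not detectable at this depth. Both strands differed in their IGROV1 and DU145 effects, by -2.87 for miR-31-5p and -2.75 for miR-31-3p (adjusted p = 2.45e-10 and 5.85e-05, edgeR). Of the neighbours on chromosome 9, CDKN2A rose by 1.02 and MTAP fell by 0.45 on the log2 scale in the IGROV1 mutants, and CDKN2B had -0.12 and was not called.

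In the DU145 mutants MIR31HG fell, and the call on its miRNA depended on the 2 doubtful columns. The host read 10.2, 19, 23.1 and 12.1 CPM in DU145 WT, 8.40, 9.23, 7.82 and 6.39 CPM in cKO1, and 14.3, 12.5, 12.8 and 12.4 CPM in cKO2. Only cKO1 lay outside the wild-type range. The mean change was -0.72 (SE 0.17, adjusted p = 0.00206, edgeR), with -1.01 called for clone 1 and -0.43 not called for clone 2 (adjusted p = 0.107). The call was lost without DU145 WT replicate 2 (-0.64, adjusted p = 0.0127) or replicate 3 (-0.50, adjusted p = 0.0358). For miR-31-5p the change was -0.51 (adjusted p = 0.0296, edgeR), and -0.53 and called (adjusted p = 0.00376) once the 2 doubtful columns were left out of the shared fit. Its mutant libraries lay below all DU145 WT libraries, with 5548, 5543, 5346 and 5161 RPM in cKO1 and 6229, 6181, 5962 and 6392 RPM in cKO2. Together with MIR210HG this made 2 lower hosts of 6, where 18.1% of all genes were called. In LIN28A-OE DU145 miR-31-5p had -0.48 (adjusted p = 0.0837), and -0.64 (adjusted p = 0.00225, edgeR) without both columns, at a host change of -0.17 (adjusted p = 0.522). No host was called there, where edgeR called 17.9% of all genes.

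**Figure D2:**
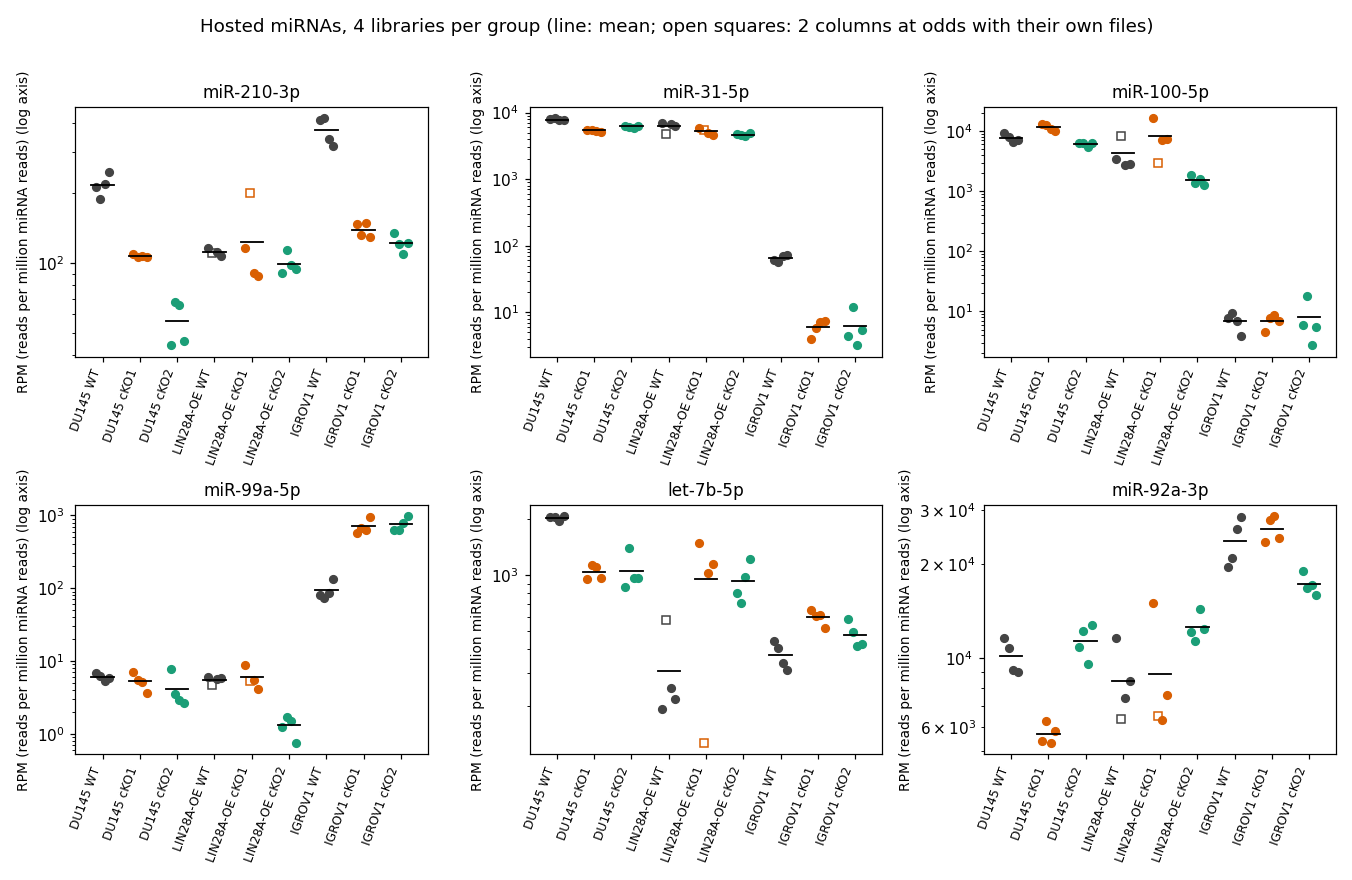
RPM of 6 hosted miRNAs (log axis), with 1 point per library, 4 per group, and a line at the mean. Open squares mark the 2 columns closest to each other's files. miR-31-5p and miR-210-3p drop in both IGROV1 mutant groups and miR-99a-5p rises there.

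MIR100HG (chr11:122028325-122556721, minus strand) and MIR99AHG (chr21:15928296-16646364, plus strand) carry paralogous clusters, each with a miR-99 family member, a let-7 hairpin and a mir-125b hairpin, mostly in introns. The lines used opposite clusters. MIR100HG held 147 reads in DU145 WT and 1 in IGROV1 WT (ratio 267, 95% interval 47.3 to 10634), and MIR99AHG held 9 reads in IGROV1 WT and 0 in DU145 WT. Among the miRNAs, the miR-125b 3p strands and miR-100-5p showed it more clearly, but let-7c-5p of MIR99AHG did not. It was higher in DU145 WT than in IGROV1 WT (log2 change 1.85, adjusted p = 4.04e-12, edgeR). How far let-7c-5p reads were told apart from those of let-7a-5p and let-7b-5p was not tested. miR-125b-1-3p, from MIR100HG, made up 99.3% ± 0.24 (SD, n = 4) of both miR-125b 3p strands in DU145 WT and 0% in IGROV1 WT. miR-100-5p read 9429, 7884, 6564 and 7116 RPM in DU145 WT and 7.74, 9.26, 6.84 and 3.96 RPM in IGROV1 WT. For miR-125b-1-3p and let-7a-2-3p the IGROV1 WT libraries held 0 reads, so DU145 WT was at least 491-fold and at least 108-fold higher, against a floor of 3 reads over the group.

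In the IGROV1 mutants the chromosome 21 cluster rose and the chromosome 11 cluster stayed low, with 318, 242 and 357 reads of miR-100-5p in WT, cKO1 and cKO2. miR-99a-5p increased from 81.0, 72.4, 86.2 and 134 RPM in IGROV1 WT to 568, 678, 639 and 950 RPM in cKO1 and 636, 630, 788 and 981 RPM in cKO2. All mutant libraries lay above all wild-type libraries (log2 change 2.99, SE 0.26, adjusted p = 6.43e-12, edgeR). let-7c-5p rose from 16.5, 15.8, 14.3 and 14.5 RPM to 52.3, 57.1, 60.0 and 64.0 RPM in cKO1 and 60.8, 58.0, 53.9 and 56.4 RPM in cKO2 (1.94, SE 0.15, adjusted p = 4.21e-13, edgeR). The mutant and wild-type libraries of let-7c-5p did not overlap either. miR-125b-2-3p rose less, from a mean of 26.9 ± 5.26 RPM to 43.7 ± 5.25 RPM in cKO1 and 92.4 ± 19.4 RPM in cKO2 (SD, n = 4; log2 change 1.26, adjusted p = 0.000385, edgeR), so the cluster's members moved by unequal amounts. For miR-125b-2-3p the change was 0.72 and not called with clone 1 alone (adjusted p = 0.0623) and 1.81 with clone 2 alone. Clone 2 lay above clone 1 by 1.09 (adjusted p = 0.00665, edgeR), a call lost without any 1 of 5 libraries, cKO1 replicate 1, 2 or 3 or cKO2 replicate 3 or 4 (0.96 to 1.14). The shared 5p strand miR-125b-5p rose by 1.31 in the mean of the clones and by 1.95 with clone 2 alone, while clone 1 alone had 0.67, not called (adjusted p = 0.094), and the clones differed by 1.28 (adjusted p = 0.00279, edgeR). miR-99a-3p went from 6 reads to 46 in each clone. miR-100-5p, with the same seed as miR-99a-5p, had a change of 0.14 (adjusted p = 0.782).

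Reads on MIR99AHG were too few to test, 9 in IGROV1 WT, 14 in cKO1 and 56 in cKO2. Scaled to group totals, cKO2 was 5.98 times wild type (95% interval 2.94 to 13.8) and cKO1 2.04 times (0.822 to 5.34), intervals that cover counting error only. The host ratio was thus above 1 in cKO2 and not distinguishable from 1 in cKO1, where miR-99a-5p was as high as in cKO2 and miR-125b-2-3p was lower than in cKO2. The DU145 mutants showed no such rise, with 7.10, 5.53, 5.16 and 3.66 RPM of miR-99a-5p in cKO1 and a change of -0.36 (adjusted p = 0.291, edgeR). DU145 WT, cKO1 and cKO2 held 184, 198 and 137 reads of miR-99a-5p. let-7c-5p was lower in the DU145 mutants (-0.77, adjusted p = 3.52e-05, edgeR). That call was lost with clone 1 alone (-0.33) and with the per-sample modification files (-0.24). The 2 lines' effects differed by 3.36 on miR-99a-5p (adjusted p = 1.39e-09) and by 2.70 on let-7c-5p (adjusted p = 3.2e-13, both edgeR). In DU145 WT, MIR99AHG and miR-99a-3p had 0 reads, and miR-100-5p made up 99.9% of the miR-100-5p and miR-99a-5p reads. How far reads of these near-identical 5p strands were told apart was not tested.

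MIR100HG and its miRNAs differed between clones made from DU145. The host read 2.86, 6.23, 4.23 and 1.53 CPM in DU145 WT, 2.40, 2.96, 3.64 and 2.08 CPM in cKO1 and 1.92, 1.5, 1.19 and 1.35 CPM in cKO2, so that the wild type overlapped each clone while the clones did not overlap each other. The mean change of -0.93 was not called (adjusted p = 0.0196), but clone 2 alone gave -1.45 (adjusted p = 0.00331) and the mean without DU145 WT replicate 4 was -1.18 (adjusted p = 0.003, edgeR). It read 0.720, 1.22, 0.734 and 1.22 CPM in LIN28A-OE DU145 WT, 2.24, 1.98, 3.23 and 2.91 CPM in cKO1 and 0.464, 0, 0.151 and 0.202 CPM in cKO2. These 3 groups did not overlap, clone 1 above wild type (1.37, adjusted p = 0.00439) and clone 2 below it (-2.23, adjusted p = 0.0017), so that their mean of -0.43 was not called. Clone 2 lay 3.60 below clone 1 on the log2 scale (-3.60, SE 0.47, adjusted p = 3.44e-07, edgeR). Here 2 hosts of 6 were lower in clone 2, MIR100HG and MIR210HG, where 37.6% of all genes were called.

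The 3 hairpins of the cluster followed their host between these clones, with -2.77 for miR-100-5p, -3.37 for let-7a-2-3p and -2.66 for miR-125b-1-3p (adjusted p = 1.45e-06, 0.000126 and 1.54e-05, edgeR), and -2.99, -3.60 and -2.94 without both columns. LIN28A-OE DU145 cKO1 held 16260, 2945, 7074 and 7384 RPM of miR-100-5p, the second of these in the doubtful column, and cKO2 held 1845, 1381, 1586 and 1288 RPM. In plain DU145 clone 2 was also below clone 1 for miR-100-5p (-1.50, adjusted p = 0.00195, edgeR; -0.95 and not called, adjusted p = 0.0376, when scaled to library totals), where the host's change of -1.03 was not called (adjusted p = 0.0287). LIN28A-OE DU145 WT lay below DU145 WT for MIR100HG (-1.93, SE 0.37, adjusted p = 0.000532, edgeR; -1.79 without LIN28A-OE DU145 WT replicate 1; adjusted p = 0.0212 when only the libraries compared were fitted), for let-7a-2-3p (-3.32, and -4.23 without both columns) and for miR-125b-1-3p (-1.49, and -2.19 without both columns). The last call was lost without replicate 1, 3 or 4 of LIN28A-OE DU145 WT or replicate 1, 2 or 3 of DU145 WT, with values from -1.52 to -1.29. For miR-100-5p the doubtful column decided the call, -0.76 (adjusted p = 0.172) with it and -1.46 (adjusted p = 4e-05) without both. In that comparison 2 hosts of 6 were lower, where 9.21% of all genes were called, and 10 hosted miRNAs of 33 were lower and 0 higher, where 8.43% of all miRNAs were called. Without both columns it was 14 lower, against 11.5% of all miRNAs.

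MIRLET7BHG (chr22:46053869-46113928, plus strand) holds let-7a-3, let-7b and mir-4763 in an exon of 1 of its 9 annotated transcripts. The let-7 family restrains proliferation, and LIN28A blocks its maturation. The host transcript was low in every group, between 0.307 and 5.66 CPM, and not called in any comparison. Without DU145 WT replicate 1, which held 0.307 CPM against 3.63, 2.21 and 1.77 in the other libraries, the DU145 change of -1.07 (adjusted p = 0.026) became -1.42 (adjusted p = 0.0013, edgeR).

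let-7b moved in opposite directions in DU145 with and without LIN28A. Without it, let-7b-5p fell from 2032, 2044, 1954 and 2067 RPM in DU145 WT to 953, 1127, 1107 and 970 RPM in cKO1 and 865, 1397, 966 and 966 RPM in cKO2 (-1.02, SE 0.30, adjusted p = 0.00771, edgeR). The groups did not overlap, yet the call was lost when any 1 of 9 libraries was left out, that is any but DU145 WT replicate 1, cKO1 replicate 2 and cKO2 replicate 2, with adjusted p from 0.0124 to 0.0226 at nearly the same change. It was also lost under DESeq2 (-0.97, adjusted p = 0.0104), RLE factors, library totals and a replicate block, and with clone 1 alone (-0.75, adjusted p = 0.0998, edgeR). Without both doubtful columns, which are in the shared fit, it was -1.04 (adjusted p = 6.97e-09). With LIN28A overexpressed, the wild type held 192, 573, 248 and 218 RPM and the mutants 1491, 126, 1020 and 1150 RPM in cKO1 and 804, 710, 973 and 1222 RPM in cKO2, a rise of 1.31 (SE 0.33, adjusted p = 0.00871, edgeR). The 573 and the 126 stand in the doubtful columns, and without both the rise was 2.07 (adjusted p = 2.21e-13). With the columns kept, this call was lost without any 1 of 9 libraries, all but replicate 2 of each group, with values from 1.07 to 1.35, with RLE factors, with a replicate block, when only the libraries compared were fitted (1.29, adjusted p = 0.232) and with either clone alone (1.51 and 1.10). let-7b-3p rose by 1.39, a call lost without LIN28A-OE DU145 WT replicate 1, 3 or 4 (1.16, 1.27 and 1.19), and by 2.26 without both columns. The LIN28A-OE effect lay above the DU145 effect by 2.33 for let-7b-5p and 2.57 for let-7b-3p (adjusted p = 0.000505 and 0.000103, edgeR), by 3.10 and 3.46 without both columns, while the host's difference of 0.88 was not called (adjusted p = 0.515). LIN28A-OE DU145 WT held less let-7b-5p than DU145 WT (-2.62, adjusted p = 2.54e-06, edgeR; -3.27 without both columns) at a host change of -0.33 (adjusted p = 0.596).

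The let-7a strands were measured beside it. let-7a-3p is made by 2 hairpins, of which only let-7a-3 lies in a listed host, so its level is not that of MIRLET7BHG alone. This strand fell by 1.23 in the DU145 mutants (adjusted p = 1.52e-11, edgeR). It had -0.14 in LIN28A-OE DU145 (adjusted p = 0.401), or -0.31 without both columns (adjusted p = 0.0136, both edgeR). let-7a-5p, which is also made by hairpins of other loci, fell by 0.66 in the DU145 mutants, a change that with clone 1 alone was -0.31 and not called (adjusted p = 0.032). Its DU145 clones differed by -0.69 (adjusted p = 1.68e-05, edgeR), or by -0.14 (adjusted p = 0.523) when scaled to library totals. Library totals in place of TMM moved the median of all miRNAs by 0.55 on the log2 scale between the DU145 clones and by 0.38 between the LIN28A-OE clones. In LIN28A-OE DU145 mutants let-7a-5p had 0.22 with and without both columns, not called. In IGROV1 let-7b-5p read 441, 409, 337 and 311 RPM in WT and 651, 606, 609 and 518 RPM in cKO1. The change of 0.53, which is for the mean of cKO1 and cKO2 and not for cKO1 alone, was not called (adjusted p = 0.165, edgeR). It was 0.48 and called (adjusted p = 0.00151, edgeR) once both columns were left out of the shared fit. let-7a-3p fell by 0.60 there (adjusted p = 5.81e-06, edgeR). miR-4763-5p had 0 reads in DU145 WT, 26 in cKO1 and 34 in cKO2, at least 7.20-fold and 11.7-fold higher against a floor of 3 reads over the group. The edgeR call on it was lost without any 1 of the DU145 WT libraries or cKO1 replicate 1 (adjusted p 0.0125 to 0.0173).

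**Figure D3:**
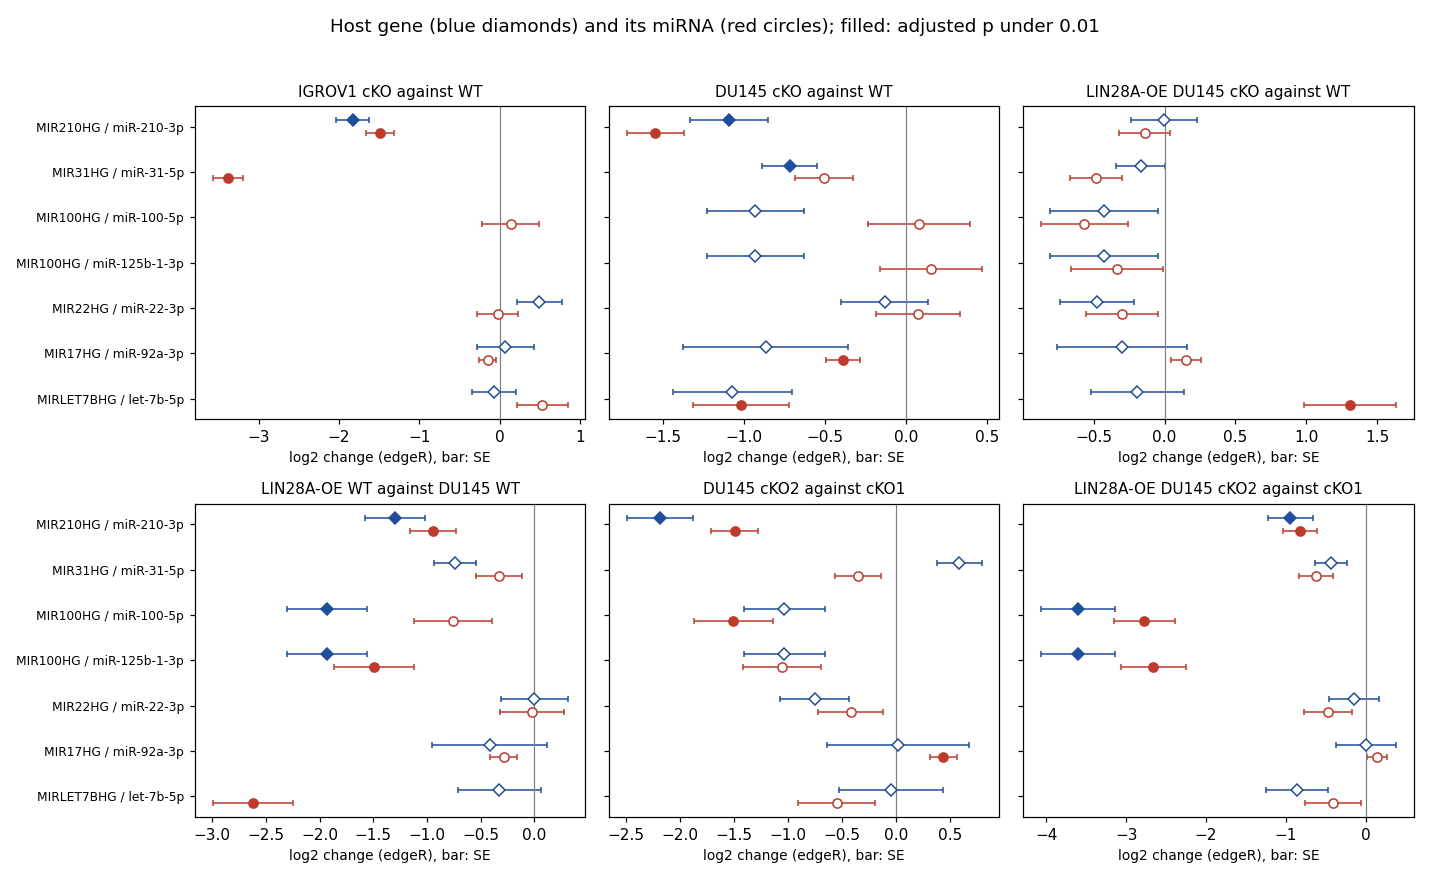
Log2 changes (edgeR, bars are SE) of a host (blue diamonds) and a miRNA it carries (red circles) in 6 comparisons, filled at adjusted p under 0.01; IGROV1 changes of MIR31HG, MIR100HG and miR-125b-1-3p are left out because their reads were at or under the floor. MIR210HG and miR-210-3p lie on the same side in IGROV1 and DU145, and in the panels of LIN28A-OE mutants against wild type and of LIN28A-OE WT against DU145 WT let-7b-5p is filled and MIRLET7BHG is not.

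MIR17HG (chr13:91347686-91397592, plus strand) carries the 6 hairpins of the mir-17-92 cluster, a MYC target that promotes proliferation. Its transcript stayed between 0.0753 and 2.75 CPM, and no comparison called it. The miRNAs were measured far more precisely. In the DU145 mutants 5 strands fell, miR-19a-3p by 0.82, miR-19b-3p by 0.59, miR-20a-5p by 0.46, miR-17-5p by 0.43 and miR-92a-3p by 0.39 on the log2 scale. miR-19b-3p and miR-92a-3p are also made by a second cluster elsewhere. The miR-92a-3p libraries show that the 2 clones did not behave alike, with 11618, 10764, 9175 and 9017 RPM in DU145 WT, 5401, 6273, 5315 and 5802 RPM in cKO1, and 10814, 12233, 9580 and 12738 RPM in cKO2. Clone 1 lay wholly below wild type and clone 2 overlapped it, with a called difference between the clones (0.44, adjusted p = 0.00622, edgeR), which was lost without any 1 of 6 libraries, all but replicate 2 of cKO1 and replicate 3 of cKO2 (0.39 to 0.43). That difference was also not called under DESeq2, RLE factors, no filter on low counts or the per-sample files (0.23 to 0.36), and was 0.99 when scaled to library totals. The miR-92a-3p call against wild type was lost without DU145 WT replicate 1, 2 or 3 (-0.43, -0.35 and -0.40), with RLE factors (-0.34, adjusted p = 0.0155), library totals (-0.34, adjusted p = 0.127) or no filter, and with clone 2 alone (-0.17, adjusted p = 0.319, edgeR). Those of miR-17-5p and miR-20a-5p were lost with library totals, no filter or clone 2 alone, and that of miR-19a-3p with clone 2 alone (-0.58, adjusted p = 0.045, edgeR). The call on miR-17-5p was lost with clone 1 alone and without replicate 1, 2 or 3 of DU145 WT, replicate 2 of cKO1 or replicate 2 or 3 of cKO2 (-0.44 to -0.41). DU145 WT held less of the cluster than IGROV1 WT, with miR-92a-3p at -0.99 and miR-18a-5p at -1.27 (adjusted p = 1.85e-08 and 2.57e-05, edgeR), at a host change of -0.86 that was not called (adjusted p = 0.11).

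MIR22HG (chr17:1711447-1717174, minus strand) holds mir-22, a miRNA often described as growth-suppressing, in an exon of 30 of its 32 annotated transcripts. It read 18.1, 31.3, 28.1 and 15.9 CPM in DU145 WT and 8.28, 8.95, 9.05 and 12.8 CPM in IGROV1 WT, which did not overlap (1.18, SE 0.32, adjusted p = 0.00154, edgeR). miR-22-3p differed by nearly the same amount (1.24, SE 0.30, adjusted p = 0.000585), with 2311, 2492, 2491 and 2576 RPM in DU145 WT against 1138, 1215, 1063 and 1549 RPM in IGROV1 WT. Neither was called between mutants and wild type in any background. In DU145 WT against IGROV1 WT 3 hosts were higher, MIR31HG, MIR100HG and MIR22HG, and MIR210HG was lower (-1.23, adjusted p = 7.05e-05), where 60% of all genes were called; 16 hosted miRNAs were higher and 11 lower, against 57% of all miRNAs.

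MIR205HG (chr1:209428817-209432848, plus strand) and H19 (chr11:1995166-2004552, minus strand) held too few reads to test. MIR205HG had 1 read in LIN28A-OE DU145 cKO1, 1 in IGROV1 WT and 0 elsewhere, and miR-205-5p reached at most 0.794 RPM in any library. H19, an imprinted fetal transcript, was listed at 0 in all 36 libraries. It carries mir-675 in an exon of 13 and in an intron of 15 of its 31 annotated transcripts. Even so miR-675-5p had 102 reads and miR-675-3p 37 reads over the 36 small RNA libraries, and IGROV1 WT held 0.887, 0.828, 0.428 and 0.452 RPM of miR-675-5p.

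Counted over all 33 tested miRNAs, 6 rose and 6 fell in the IGROV1 mutants, where 39.5% of all miRNAs were called. In the DU145 mutants 1 rose and 11 fell, against 21.1% of all miRNAs, and their median change was -0.27. In LIN28A-OE DU145 2 rose and 1 fell, against 4.46% of all miRNAs, and without both columns 5 rose and 4 fell, against 28.5%. The single lower strand there, miR-99a-5p (-1.13, adjusted p = 0.005, edgeR), came from clone 2 alone, since clone 1 had 0.14. It was lost without replicate 1, 3 or 4 of the wild type, replicate 4 of cKO1 or replicate 1 or 4 of cKO2, with values from -1.21 to -1.03. In LIN28A-OE DU145 WT, cKO1 and cKO2, miR-100-5p, of nearly the same sequence, made up 99.8%, 99.9% and 99.9% of both strands' reads. Between these clones miR-99a-5p differed by -2.55 and miR-100-5p by -2.77. How far their reads were told apart was not tested. Between clones 2 strands were higher and 8 lower in clone 2 of IGROV1 (20.8% of all miRNAs called), 2 and 8 in DU145 (21.4%), and 1 and 8 in LIN28A-OE DU145 (15.8%; 2 and 9 without both columns, against 30.4%). With library totals in place of TMM, all lower miRNA calls between the DU145 clones except that of miR-210-3p were lost. The median of all miRNAs moved by 0.55 there. No host was called between the IGROV1 clones (18.8% of all genes were), and 1 was lower in clone 2 of DU145, MIR210HG (31.1% of all genes). The tests of unequal effects called no host, where they called 24.2% of all genes between IGROV1 and DU145 and 0.489% between LIN28A-OE DU145 and DU145. For the miRNAs 5 were higher and 2 lower in the IGROV1 effect (20.8% of all miRNAs) and 6 higher in the LIN28A-OE effect (3.49% of all miRNAs; 7, against 6.71%, without both columns).

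The 3′ ends of the hosted miRNAs, a readout that levels do not use, changed almost throughout. The share of a miRNA's reads with a nontemplated 3′ U was lower in the mutants for 20 of 22 testable strands in DU145, 20 of 22 in LIN28A-OE DU145 and 16 of 20 in IGROV1 (limma on log2 odds with Benjamini-Hochberg adjustment). Over all miRNAs 84.6%, 82.5% and 74.1% were called. The hosted medians of -3.78, -3.37 and -2.25 (log2 odds) lay beside -3.65, -3.50 and -2.24 for all miRNAs. The strand with the highest U share was let-7b-3p, at 54.2, 62.7, 59.2 and 56.6% in DU145 WT and 0.664% and 1.36% on average in its mutants. In IGROV1 WT it was 71.8, 72.1, 75.8 and 61.7%, in cKO1 1.47% on average, and in cKO2 34.8, 29.3, 25.9 and 32.3%. The IGROV1 clones thus kept unequal amounts of U on this strand, and all mutant libraries lay below wild type (-4.89, SE 0.33, adjusted p = 7.6e-08, limma).

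The U share of miR-125b-1-3p fell from 22.5% ± 3.58 in DU145 WT to 0.167% and 0.522%, and that of miR-125b-2-3p from 21.2% ± 4.40 in IGROV1 WT to 3.47% and 2.41% (SD, n = 4). By contrast let-7a-5p carried a nontemplated U on 0.00428% of its reads in DU145 WT and was not called in any background. An added U that matches the hairpin sequence is not counted as nontemplated, and its part in this low share was not tested. A additions rose for 10 strands and fell for 3 in DU145 (51.5% of all miRNAs called), rose for 6 and fell for 1 in LIN28A-OE DU145 (26.4%), and rose for 5 and fell for 2 in IGROV1 (25.2%). The A share of let-7b-3p went from 5.69% ± 0.967 in DU145 WT to 53.0% and 43.4% in cKO1 and cKO2, and from 2.63% ± 1.02 in IGROV1 WT to 51.5% and 28.1%. miR-210-3p was already adenylated on 45.2% ± 1.41 of its DU145 WT reads and reached 65.3% and 61.9% (1.09, SE 0.12, adjusted p = 9.98e-06, limma), and miR-92a-3p went the other way, from 0.675% ± 0.0386 to 0.557% and 0.391%. miR-31-5p lost U to a similar degree in DU145 (-3.06) and LIN28A-OE DU145 (-3.29), where its level was called only without both columns, and let-7b-5p lost U in both (-5.37 and -5.22) while its level fell in the one and rose in the other.

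**Figure D4:**
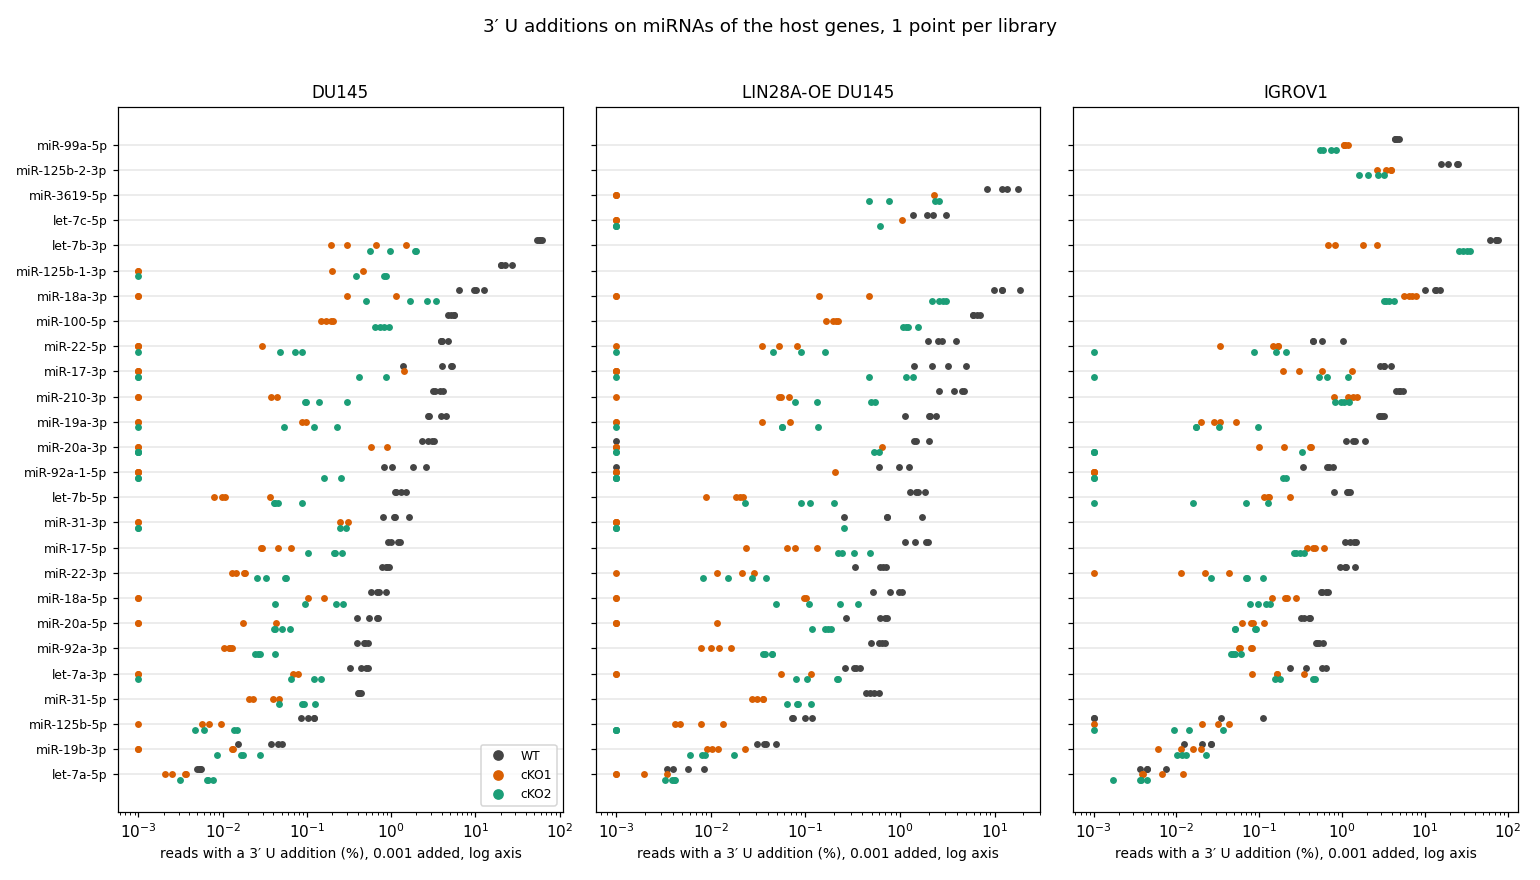
Share of reads with a nontemplated 3′ U (percent, log axis, 0.001 added) for hosted miRNAs in each background, with 1 point per library and 4 per group. Mutant libraries lie below wild type for nearly all strands, and let-7b-3p in IGROV1 cKO2 keeps 25.9 to 34.8%.

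Other host genes were counted in the same way. The share of all genes called in either direction was 33.2% in the IGROV1 mutants, 18.1% in DU145 and 17.9% in LIN28A-OE DU145. Of 29 further MIR host genes 8 were tested. In the IGROV1 mutants 3 rose and 0 fell, MIR503HG by 1.47, MIRLET7DHG by 0.95 and MIR4435-2HG by 0.64, with a list median of 0.47 against 0.00 for all genes, and in DU145 MIR4435-2HG alone rose, by 0.63. Of 38 protein-coding genes that host a miRNA 36 were tested, with 7 higher and 7 lower in IGROV1, 3 and 6 in DU145, and 6 and 7 in LIN28A-OE DU145. SLIT2, an axon guidance ligand that hosts mir-218-1, rose in all 3 backgrounds, by 1.53, 2.22 and 2.03 on the log2 scale, and C9orf3, the host of mir-23b, mir-27b and mir-24-1, by 1.51, 0.82 and 0.67. EVL, which hosts mir-342, fell by 0.51, 0.77 and 0.88. Of 18 known regulators and neighbours 15 were tested, with 4 higher and 4 lower in IGROV1, 2 higher in DU145, and 2 higher and 2 lower in LIN28A-OE DU145. IGF2BP1, a let-7 target that binds mRNA, rose by 0.68, 1.95 and 1.46, and HMGA2, another let-7 target, fell by 2.06 in LIN28A-OE DU145. MYC was not called in any of the 3, with 0.05, -0.14 and -0.08.

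The 2 genes whose log2 CPM most resembled each host over the 36 libraries are given as a description, since groups and lines give these values their shape. MIR210HG was most like BNIP3 (Pearson r 0.857) and PGK1 (0.839), a glycolytic enzyme. MIR31HG was most like LOC339803 (0.994) and RNLS (0.992), MIR100HG like MAP10 (0.946) and MRPS30 (0.931), and MIRLET7BHG like TOB2 (0.848) and RFXAP (0.841). MIR22HG was most like SRSF5 (0.792) and ARL2BP (0.719), and MIR17HG like KHDRBS1 (0.802) and MB21D2 (0.797). MIR31HG and MIR100HG, absent from 1 line, had the highest values.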

How the data were processed

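Per the study's methods and the submitters' processing notes, the authors trimmed mRNA reads with Trimmomatic 0.39, aligned them to hg38 with HISAT2 2.1.0 and deposited HTSeq read counts per gene. They deposited miRDeep2 read counts per mature miRNA, and Chimira counts of 3′ modified reads per sample. Rows that name no gene held 8.3 to 14.8% (no feature) and 1.8 to 2.2% (ambiguous) of the mRNA reads and were left out. The greatest row was used for a miRNA listed under several precursors.

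Counts of 36 libraries per assay were fitted with edgeR 4.0.16 (9 group means, TMM, filterByExpr with a minimum count of 10, quasi-likelihood test). Each mutant comparison took the mean of both clones. Calls used a Benjamini-Hochberg adjusted p under 0.01 over all features. Levels are CPM over reads on genes and RPM over reads on mature miRNAs. Shares of U or A additions (0.5 added, at least 100 reads in all 12 libraries of a background) were tested as empirical log2 odds with limma 3.58.1. Intervals of read ratios are exact 95% intervals and cover counting error only, and a count of 0 was set to a floor of 3 reads. DESeq2 1.42.0 was among the alternatives.

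The members were given by name. Of each further list at most 4 genes, those with the greatest change among the called, were named by rule; MYC, MTAP, CDKN2B and the values of listed genes in other backgrounds were added after their values were seen. Members and lists were chosen with earlier results of these data known. Same-numbered libraries correlated above 0.1 in all 4 pairs in 1 comparison, the mRNA of DU145 cKO2 against cKO1 (0.116 to 0.533), and were positive but not all above it in the mRNA of IGROV1 cKO2 against cKO1 (0.0991 to 0.744) and the miRNAs of DU145 cKO2 against cKO1 (0.0419 to 0.168), and no source says that numbers mark a shared day. Scripts were tested on simulated data.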

Additional observations from a re-analysis of the deposited data

Results flagged for a closer look

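In 9 of 173 groups of 4 libraries 1 library lay far from the other 3 by Dixon's 95% criterion, and chance gives about 1 in 20. In LIN28A-OE DU145 WT replicate 2, one of the 2 doubtful columns, these were let-7b-5p at 573 RPM, let-7b-3p at 23.8 RPM and miR-100-5p at 8195 RPM. The others were MIR22HG at 12.8 CPM in IGROV1 WT replicate 4, miR-100-5p at 5406 RPM in DU145 cKO2 replicate 3, miR-19a-3p at 609.6 RPM in LIN28A-OE DU145 WT replicate 1, miR-22-5p at 553 RPM in LIN28A-OE DU145 cKO2 replicate 2, miR-22-3p at 2236 RPM in DU145 cKO2 replicate 2 and miR-92a-3p at 14984 RPM in LIN28A-OE DU145 cKO1 replicate 1.

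The mutant effect differed between lines in the edgeR test of the difference for 7 hosted miRNAs. The IGROV1 effect minus the DU145 effect, on the log2 scale, was 3.36 for miR-99a-5p, 2.70 for let-7c-5p, 1.55 for let-7b-5p, 0.63 for let-7a-3p, 0.49 for let-7a-5p, -2.75 for miR-31-3p and -2.87 for miR-31-5p. The let-7a-5p difference was not called under DESeq2, RLE factors, library totals or no filter on low counts (0.41 to 0.43). It was also lost without DU145 WT replicate 1, 3 or 4, any 1 IGROV1 WT library, or replicate 1 of DU145 cKO2 or IGROV1 cKO2. That of let-7b-5p was lost with RLE factors (1.48) or library totals (1.47), and without replicate 2, 3 or 4 of DU145 WT or of IGROV1 WT. That of let-7a-3p was lost with library totals (0.54) or no filter (0.55). The LIN28A-OE effect minus the DU145 effect was above 0 for 6 miRNAs, at 2.57 for let-7b-3p, 2.33 for let-7b-5p, 1.41 for miR-210-3p, 1.09 for let-7a-3p, 0.90 for let-7c-5p and 0.88 for let-7a-5p. Without both doubtful columns these were 3.46, 3.10, 1.21, 0.94, 0.87 and 0.89 in the same order, and for miR-210-3p the per-sample modification files gave 0.71, not called. For let-7c-5p those files gave 0.40, not called (adjusted p = 0.17, edgeR). Its call was also lost with RLE factors, no filter on low counts or only the libraries compared (0.78 in each). The let-7b-5p call was lost when only the libraries compared were fitted (2.24, adjusted p = 0.0101, edgeR). LIN28A mRNA also rose in the LIN28A-OE mutants (log2 change 2.09), and its part in these differences was not tested.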

How the results depend on the processing

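Of the single results called, 7 of 12 for hosts, 59 of 106 for miRNA levels, 53 of 56 for U shares and 13 of 27 for A shares kept their call under every alternative run. With mutant clone 1 alone, 1 host was called in the DU145 mutants and 1 in the LIN28A-OE DU145 mutants, where MIR100HG turned to 1.37 and miR-99a-5p to 0.14, and 0 hosted miRNAs were called there; with clone 2 alone 1 host and 8 miRNAs were. In the same comparison, 9 miRNAs were called without both doubtful columns and 15 from the per-sample modification files, both chosen after seeing the data. Fitting only the libraries compared gave 0 miRNAs there, 0 hosts and 6 miRNAs in LIN28A-OE WT against DU145 WT, 4 hosts and 18 miRNAs between the DU145 clones, and 5 miRNAs between the LIN28A-OE clones. Library totals in place of TMM gave 2 hosts between the DU145 clones and 4 miRNAs in the IGROV1 minus DU145 effect. Leaving out 1 library gave 1 to 3 hosts in the DU145 mutants, 1 to 2 between the LIN28A-OE clones and 0 to 1 in the IGROV1 minus DU145 effect, and 0 to 6 miRNAs in the LIN28A-OE mutants, 6 to 8 between the IGROV1 clones and 6 to 10 between the DU145 clones. The causes were not tested. A replicate block changed 13 of 518 single calls, for hosts MIRLET7BHG in DU145 WT against IGROV1 WT (-1.03, adjusted p = 0.00689, edgeR), and moved no count by more than 1.5 times. Hosts of a few reads per library, MIR99AHG first, are limited by depth.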
